A study of Mus musculus with 8 samples.

Results

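The genes described here are 7 genes of MHC class II antigen presentation, H2-Ab1, H2-Aa, H2-Eb1, Cd74, H2-DMa, H2-DMb1 and Ciita. They were measured by 11 of the 56605 non-control probes on arrays of mouse femoral growth plate cartilage. A probe was counted as a member's if the array design gives it a RefSeq transcript of that gene. H2-Ab1 had 4 probes, Ciita had 2 and the other 5 genes had 1 each, and 10 of the 11 probes, covering all 7 genes, passed the filter on dim signal. The study compared 4 mice labelled CreTW with 4 labelled Cre, all littermates at 12 days of age, with 1 array per mouse from 100 ng of RNA. The genotypes are named in the labels by these words alone. From background knowledge, CreTW mice carry in cartilage the recombinase together with mutant Twinkle, a helicase needed to copy mitochondrial DNA, and Cre mice carry the recombinase without it. The recombinase is thus shared by both genotypes. The question set by the series title concerns cartilage growth after the respiratory chain is inactivated.

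MHC class II molecules carry peptides from proteins taken up into endosomes and show them to CD4+ T cells. In mice they are made mainly by dendritic cells, B cells and macrophages, which are found in bone marrow next to the growth plate, and chondrocytes are not known as a main source. H2-Aa and H2-Ab1 encode the alpha and beta chains of I-A, and H2-Eb1 encodes the beta chain of I-E. Cd74, the invariant chain, fills the peptide groove until the endosome. H2-DMa and H2-DMb1 encode the chains of the H2-DM dimer, which exchanges the remaining fragment of the invariant chain for peptide. Ciita, the class II transactivator, binds no DNA itself and acts through factors already bound at the promoters.

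The members were chosen by results of the CreTW against Cre contrast on these arrays, in which H2-Ab1 was among the lower genes. Their differences between the genotypes are therefore a description and carry no p-value. Values are log2 processed intensities scaled so that 0 is the 75th percentile of an array. Differences are CreTW minus Cre with the SE of the fit and n = 4 arrays per genotype. Per array, 45.4% to 57.9% of probes exceeded background well and 0 spots were saturated. Arrays correlated at a mean r of 0.986 within a genotype and 0.982 between genotypes, and the number of arrays limits the precision.

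5 members lie on chromosome 17 in the mouse MHC, in the order H2-DMa, H2-DMb1, H2-Ab1, H2-Aa, H2-Eb1. Ciita lies on chromosome 16. Promoter windows of RefSeq (build GRCm38.p6, 250 bases before to 50 bases after a gene start) were matched by symbol for 4 members. In H2-DMb1, H2-Aa and H2-Eb1 these windows hold the paired X and Y boxes known from class II promoters, where the RFX and NF-Y factors bind and Ciita is recruited. They are shown because these 3 genes, which share this pair, did not share one pattern across the arrays. Each stretch is written on its gene's strand, with the match to the X letters CTNGNAACT first in capitals and the match to the Y letters GATTGG second in capitals.
H2-DMb1, chr17:34153069-34153159, plus strand: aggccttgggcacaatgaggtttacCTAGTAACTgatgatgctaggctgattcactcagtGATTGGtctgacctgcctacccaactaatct
H2-Aa, chr17:34287842-34287932, minus strand: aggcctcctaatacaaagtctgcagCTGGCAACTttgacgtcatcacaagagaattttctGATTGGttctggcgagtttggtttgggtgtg
H2-Eb1, chr17:34305748-34305837, plus strand: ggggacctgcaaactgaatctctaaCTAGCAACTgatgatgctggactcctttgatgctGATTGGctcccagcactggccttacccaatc

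The letters between the boxes numbered 26 in H2-DMb1, 26 in H2-Aa and 25 in H2-Eb1. The motif letters were chosen after these promoters had been read. The X and Y matches in capitals do not overlap. The H2-Eb1 window held 2 matches to the Y letters. The match on the other strand, at the end of the printed stretch, is left in lower case. Searched on both strands, the X letters were found in 4.10% of 32851 promoter windows and the Y letters in 16.1%. X followed by Y within 40 bases on the gene's strand was found in 9 windows (0.0274%), 3 of them these. The windows of H2-DMa, at 2 starts, held no match to the X letters, and 1 of them held a match to the Y letters. A match is a description of the letters and not of binding.

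H2-Ab1, the I-A beta chain, was lower in all 4 CreTW arrays than in all 4 Cre arrays. On its brightest probe it had log2 values of 2.68, 2.32, 2.44 and 2.96 in CreTW cartilage, against 3.56, 3.99, 3.57 and 3.70 in Cre cartilage. The genotypes did not overlap, and the highest CreTW array was replicate 4. The difference was -1.10 ± 0.16 on the log2 scale, a signal 2.15-fold lower in CreTW. H2-Ab1 was the 1 member of 7 that passed the threshold of adjusted p 0.05 in the limma fit across all 23105 features, a threshold passed by 0.346% of those features, and by 0.117% of them as lower in CreTW. This contrast chose the members, so nothing is read from that count. With 1 array left out at a time, H2-Ab1 passed the same threshold in 1 of 8 fits, the one without CreTW replicate 4, while the difference stayed between -1.22 and -1.01. It also missed the threshold with the replicate number or the slide row as a block, and in each slide row alone. The same held without the filter on dim probes and with the pan-leukocyte, skeletal muscle or osteoclast score in the fit.

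All 4 probes of H2-Ab1 showed the same separation. Their differences lay between -1.12 and -0.97, or 1.95 to 2.17-fold lower in CreTW, and the gap between the highest CreTW and the lowest Cre array was 0.41 to 0.61. The dimmest of these probes, A_55_P2741874, had values of -0.26, -1.10, -0.82 and -0.13 in CreTW cartilage, against 0.30, 0.72, 0.52 and 0.28 in Cre cartilage. After each genotype's mean had been subtracted, pairs of the 4 probes correlated across the 8 arrays at r = 0.54 to 0.98. The probes share the RNA of each array, so they are repeat readings and not replicates.

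**Figure D1:**
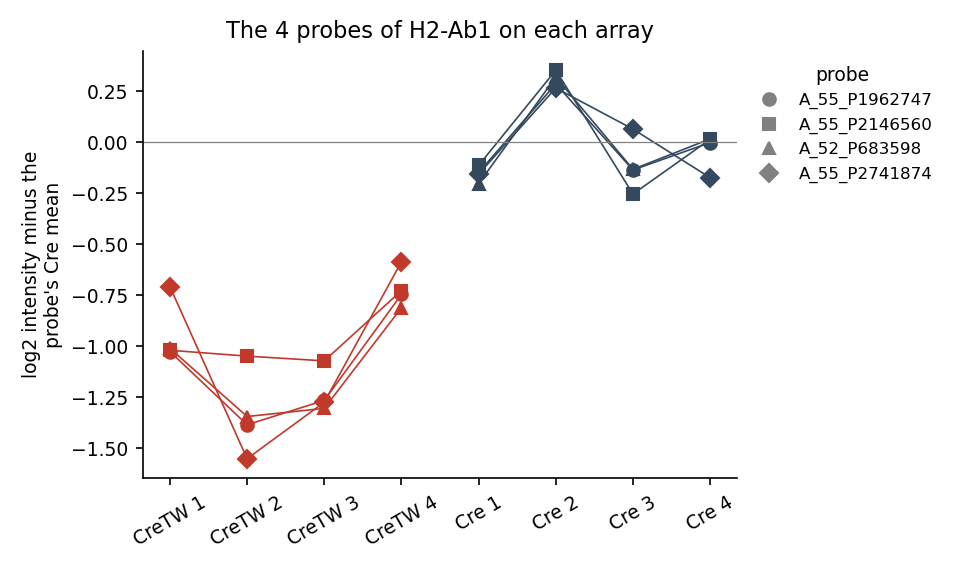
Log2 intensity of the 4 H2-Ab1 probes on each array (y axis, minus the probe's own mean over the 4 Cre arrays), with CreTW arrays in red and Cre arrays in dark blue and 1 marker shape per probe. On each of the 4 probes the 4 CreTW arrays lie below the 4 Cre arrays.

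H2-Aa, the alpha chain that pairs with H2-Ab1, did not separate the genotypes. It had values of -1.61, -2.62, -1.86 and -1.25 in CreTW cartilage, against -0.92, -1.40, -0.90 and -2.18 in Cre cartilage. CreTW replicate 2 was the lowest array, where the probe was not well above background, and Cre replicate 4 was the next lowest. The difference was -0.49 ± 0.36.

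H2-Eb1, the I-E beta chain, had values of 2.01, 0.90, 1.71 and 2.13 in CreTW cartilage, against 2.49, 1.94, 2.49 and 1.47 in Cre cartilage. The genotypes overlapped, again with CreTW replicate 2 and Cre replicate 4 lowest, and the difference was -0.41 ± 0.32. Cd74, the invariant chain, had values of 1.10, 0.11, 1.03 and 1.36 in CreTW cartilage, against 1.91, 1.49, 1.83 and 0.63 in Cre cartilage. The same arrays were lowest, the genotypes overlapped, and the difference was -0.57 ± 0.34.

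Ciita, the transactivator, was near the limit of detection. Its brighter probe was well above background on 3 of 4 CreTW and 4 of 4 Cre arrays, with values of -2.20, -2.93, -2.05 and -1.62 in CreTW cartilage, against -1.43, -1.66, -1.41 and -2.59 in Cre cartilage. CreTW replicate 2 and Cre replicate 4 were lowest here too. The difference was -0.43 ± 0.33, or -0.35 when the dim array was given the lowest signal that its other probes had well above background. The other Ciita probe was well above background on 0 CreTW arrays and 1 Cre array and was not kept.

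The chains of the H2-DM dimer followed another order of arrays. H2-DMa had values of -0.49, -0.40, -1.29 and -0.38 in CreTW cartilage, against -0.84, -0.01, -0.29 and 0.25 in Cre cartilage. H2-DMb1 had values of 3.37, 3.61, 2.60 and 3.16 in CreTW cartilage, against 2.61, 3.44, 3.07 and 3.78 in Cre cartilage. Both genes overlapped between the genotypes, both were highest in Cre replicate 4, and both were lowest in CreTW replicate 3 and Cre replicate 1. The difference was -0.42 ± 0.28 for H2-DMa and -0.04 ± 0.29 for H2-DMb1.

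**Figure D2:**
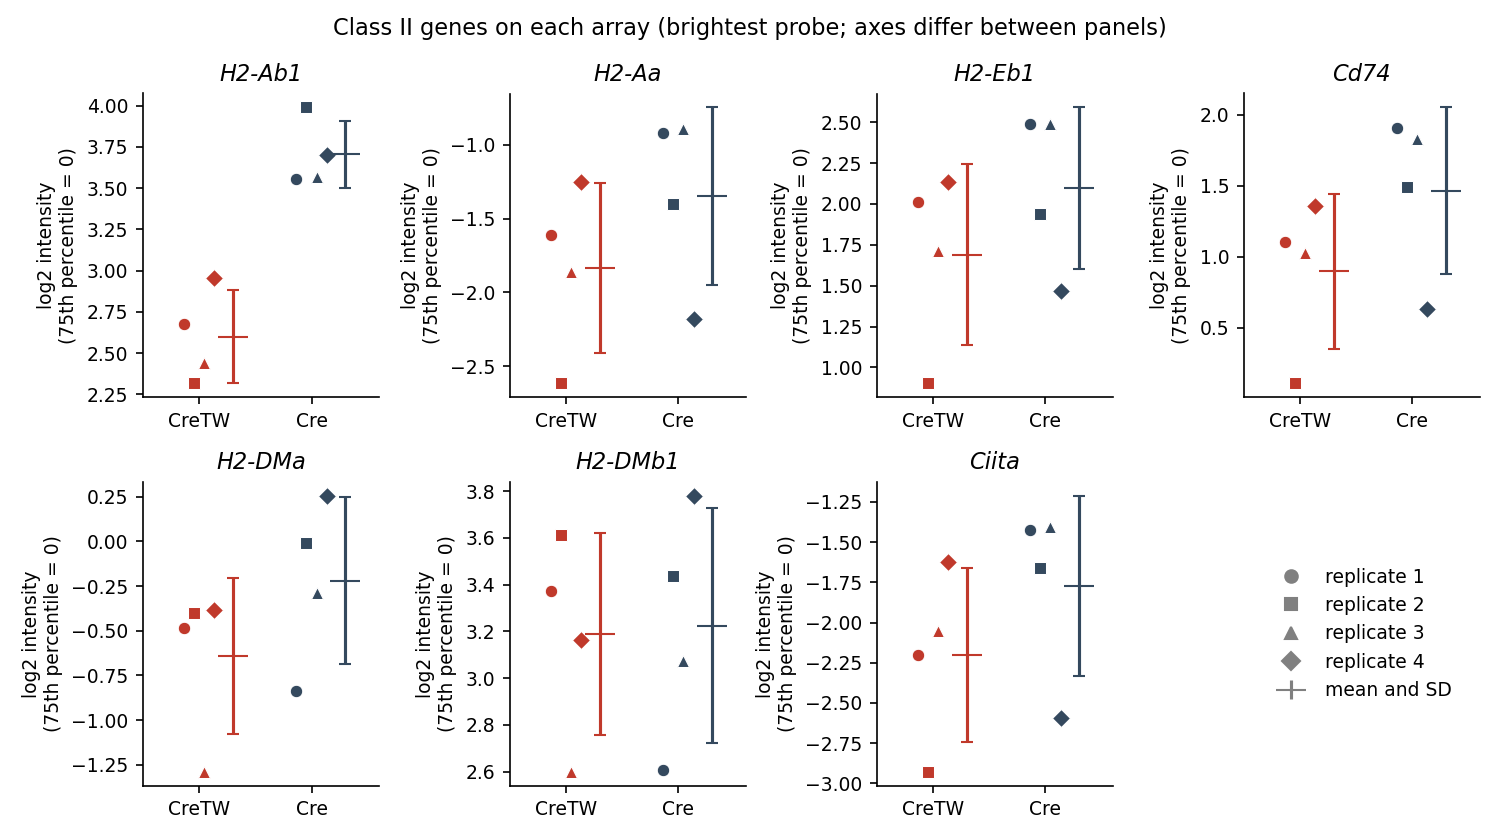
Log2 intensity of the 7 class II genes on each array (y axis, array's 75th percentile at 0, scale differs between panels), CreTW in red on the left and Cre in dark blue on the right of each panel. Marker shapes are replicates and bars are means with SD, n = 4 per genotype; H2-Ab1 is the gene whose genotypes do not overlap.

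All 7 members had a negative difference, with a median of -0.43, while the median over all 23105 features was -0.01 and 51.6% of them had a negative difference. All 4 CreTW values lay below all 4 Cre values in 1 of the 7 members and in 2.81% of all features, and all 4 lay above in 0 members and in 3.89% of all features. Levels of different probes cannot be set against each other on arrays, so the members were compared by their shifts from their own Cre means. On CreTW replicate 4 these shifts were -0.75 for H2-Ab1, 0.09 for H2-Aa and 0.04 for H2-Eb1. On Cre replicate 4 they were 0.00 for H2-Ab1, -0.83 for H2-Aa, -0.63 for H2-Eb1 and -0.84 for Cd74. The beta chain of I-A thus held its level on the Cre array where the alpha chain was low. Within CreTW the 2 chains did not part in this way. H2-Ab1, H2-Aa and H2-Eb1 ranked the CreTW arrays in the same order, with replicate 4 highest and replicate 2 lowest. On CreTW replicate 2 the shifts were -1.38 for H2-Ab1, -1.27 for H2-Aa, which was not well above background there, and -1.19 for H2-Eb1.

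Across the 8 arrays, with genotype means subtracted, H2-Aa, H2-Eb1, Cd74 and Ciita correlated with one another at r = 0.93 to 0.99 (6 pairs). H2-DMa and H2-DMb1 correlated with each other at 0.95 and with those 4 genes at -0.73 to -0.43 (8 pairs). H2-Ab1 correlated with the same 4 genes at 0.32 to 0.39 and with the H2-DM genes at 0.22 and 0.45. These are descriptions over 8 arrays, and genes read on one array share its RNA and its scaling.

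A score of 11 measured pan-leukocyte markers, the mean of each marker's deviation from its own mean over the 8 arrays, was -0.19, -0.98, 0.02 and -0.08 in CreTW cartilage, against 0.63, 0.43, 0.80 and -0.63 in Cre cartilage. It was lowest on CreTW replicate 2 and Cre replicate 4, the arrays with the lowest H2-Aa, H2-Eb1, Cd74 and Ciita. All 11 markers had a negative difference (median -0.66) and 0 passed the test. Ptprc, the leukocyte phosphatase CD45, had values of -0.54, -1.53, -0.48 and -0.32 in CreTW cartilage, against 0.56, 0.30, 0.67 and -1.15 in Cre cartilage (difference -0.81 ± 0.43, adjusted p = 0.546 by limma). In bulk RNA, fewer cells of a type and less RNA per cell cannot be told apart.

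The 6 members that did not separate the genotypes were set against this score and against a score of 12 chondrocyte markers, 12 relations in all. The chondrocyte score was taken up after the members' values had been seen, so its 6 relations are given as a description with no p-value. The relations to the pan-leukocyte score were tested with 2-sided exact permutation tests over 8 arrays, with Benjamini-Hochberg adjustment over all 12. The shuffles ignored genotype, and the genes and the score share the RNA and scaling of each array. Both were lower on average in CreTW, in the contrast that chose the members. A small p therefore says only that gene and score vary together, and not that this is particular to these genes. Against the pan-leukocyte score Cd74 had Pearson r = 0.97 (exact p = 0.000397, adjusted 0.00238) and Spearman rho = 0.90 (exact p = 0.00456, adjusted 0.0183). Ciita had r = 0.95 (exact p = 0.000694, adjusted 0.00278) and rho = 0.93 (exact p = 0.00223, adjusted 0.0134). H2-Aa had r = 0.93 (exact p = 0.00154, adjusted 0.00461) and rho = 0.88 (exact p = 0.00724, adjusted 0.0217). For H2-Eb1, r was 0.91 (exact p = 0.00308, adjusted 0.00738), while its rho of 0.79 missed the threshold after adjustment over the 12 relations (exact p = 0.0279, adjusted 0.067). The adjusted values depend on that set, which includes the 6 chondrocyte relations given without p-values. Without the arrays farthest from the score's median, CreTW replicate 2 and Cre replicate 3, r was 0.94 for Cd74, 0.89 for Ciita, 0.83 for H2-Aa and 0.77 for H2-Eb1. With genotype means subtracted, r was 0.89 to 0.96 for these 4 genes.

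H2-DMb1 ranked the 8 arrays in the same order as the chondrocyte score, with r = 0.94 and rho = 1, and r was 0.96 without Cre replicate 4 and CreTW replicate 3. H2-DMa had r = 0.87 and rho = 0.71 with that score, and its r was 0.64 without the same arrays. Against the pan-leukocyte score, H2-DMb1 had r = -0.64 (exact p = 0.0868, adjusted 0.149) and rho = -0.69 (exact p = 0.0694, adjusted 0.119). H2-DMa had r = -0.21 (exact p = 0.619, adjusted 0.619) and rho = -0.10 (exact p = 0.84, adjusted 0.84). With genotype means subtracted, r with that score was -0.78 for H2-DMb1 and -0.63 for H2-DMa. The other 4 genes had r of -0.61 to -0.53 with the chondrocyte score. The scores themselves correlated at r = -0.60, so the relations to each are not separate readings. H2-Ab1 was given no pooled correlation, because its values form a group per genotype.

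**Figure D3:**
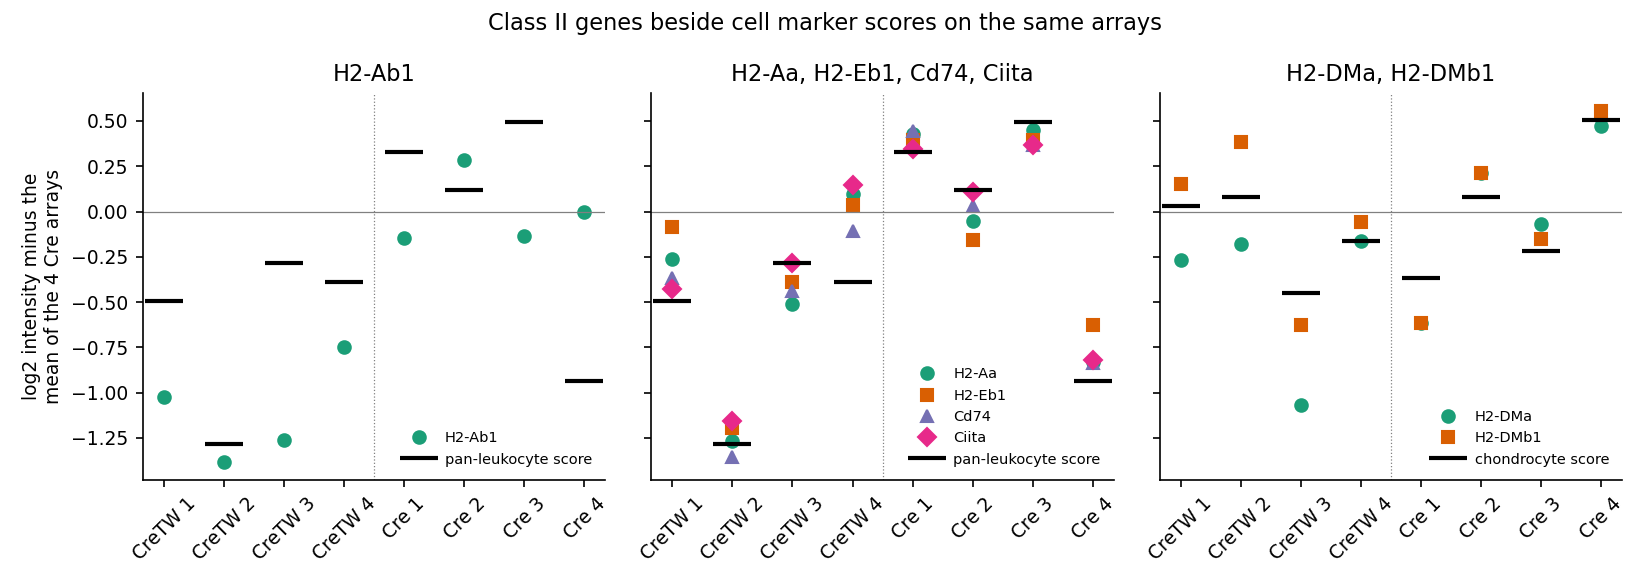
Shift of each class II gene from its mean over the 4 Cre arrays (y axis, log2) on each array, CreTW arrays left of the dotted line and Cre arrays right, with black bars for the marker score on the same scale. H2-Aa, H2-Eb1, Cd74 and Ciita lie near the pan-leukocyte score on most arrays, and H2-DMb1 follows the order of the chondrocyte score. H2-Ab1 stays near 0 on Cre replicate 4 where the pan-leukocyte score is -0.94. On CreTW replicate 2 both are low, at -1.38 for H2-Ab1 and -1.28 for the score.

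With the pan-leukocyte score as a covariate in the fit, the difference was -1.06 ± 0.19 for H2-Ab1, which then no longer passed the threshold. It was 0.11 ± 0.19 for H2-Aa, 0.11 ± 0.19 for H2-Eb1, 0.03 ± 0.14 for Cd74 and 0.14 ± 0.15 for Ciita. These 4 lost their negative sign, but each value was smaller than its SE. For H2-DMa the difference was -0.73 ± 0.27 and for H2-DMb1 -0.44 ± 0.23. Expressed as its shift minus the shift of the score on the same array, H2-Ab1 lay between -0.98 and -0.10 in CreTW cartilage and between -0.63 and 0.94 in Cre cartilage, and on that scale the genotypes overlapped. The mean of that quantity was -0.49 ± 0.37 in CreTW and 0.00 ± 0.71 in Cre (SD, n = 4). The subtraction takes H2-Ab1 to move by the same amount as the score, so the score's own spread enters the result. Before the subtraction the SD of H2-Ab1 was 0.28 in CreTW and 0.20 in Cre.

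Some arrays stood apart in their marker scores. The skeletal muscle score (12 markers, all with a positive difference and 0 passing the test) ranged from -1.03 to 3.29 in CreTW and from -2.95 to 0.26 in Cre, with a median difference of 3.99 among its genes. With this score as a covariate H2-Ab1 differed by -0.83 ± 0.23, and the part of muscle content in the class II values was not tested further. Without Cre replicate 4, the difference was -1.11 for H2-Ab1, -0.76 for H2-Aa, -0.62 for H2-Eb1, -0.85 for Cd74, -0.70 for Ciita, -0.26 for H2-DMa and 0.15 for H2-DMb1. Without CreTW replicate 2 it was -1.01 for H2-Ab1, -0.23 for H2-Aa, -0.14 for H2-Eb1, -0.30 for Cd74, -0.19 for Ciita, -0.50 for H2-DMa and -0.18 for H2-DMb1.

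The 8 arrays of the slide lay in 2 rows, with replicates 1 and 2 of each genotype in row 1 and replicates 3 and 4 in row 2. H2-Ab1 differed by -1.27 ± 0.22 in row 1 and by -0.94 ± 0.23 in row 2. The other chain genes differed in row 1 alone by -0.95 for H2-Aa, -0.76 for H2-Eb1 and -1.10 for Cd74, and in row 2 by -0.02, -0.06 and -0.04 in the same order. Ciita differed by -1.02 in row 1 and 0.16 in row 2, H2-DMa by -0.02 and -0.82, and H2-DMb1 by 0.47 and -0.55. H2-Ab1 was thus negative in both rows, but with 2 arrays per genotype it passed the threshold in neither, and 0 of all features did.

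**Figure D4:**
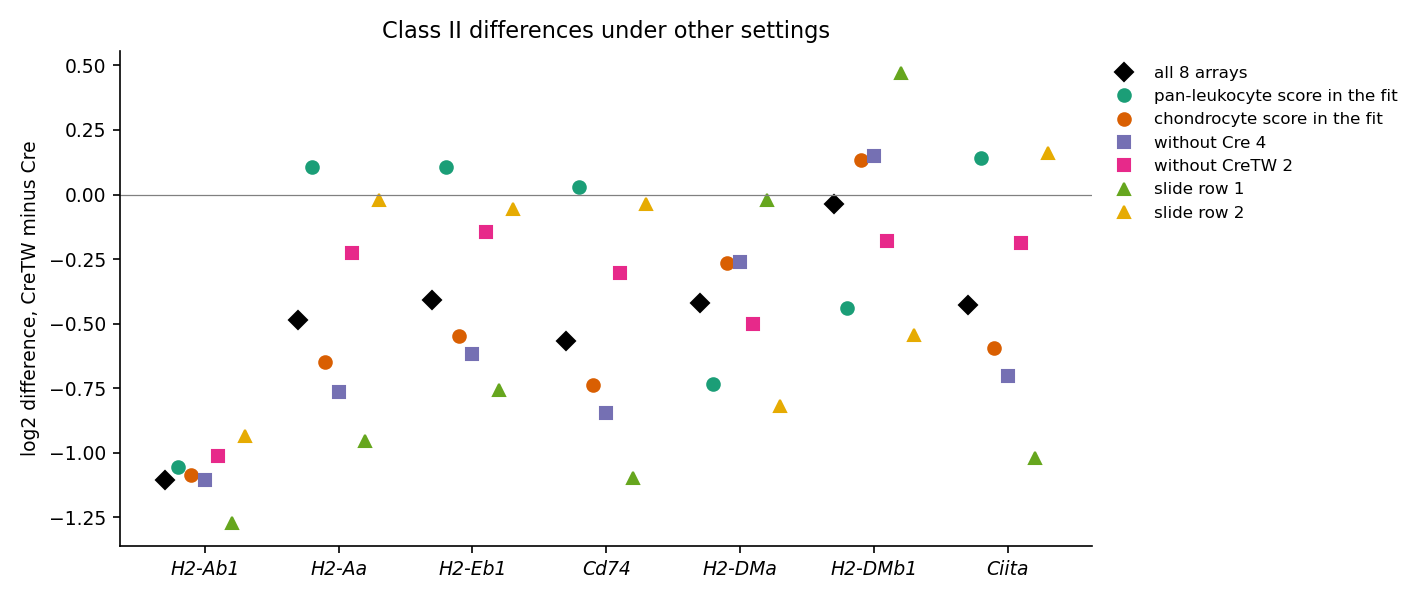
Log2 difference, CreTW minus Cre (y axis), of each class II gene with all 8 arrays, with the pan-leukocyte or the chondrocyte score in the fit, without Cre 4 or CreTW 2 and within each slide row. The H2-Ab1 points drawn lie between -1.27 and -0.94, and the highest points of the other members lie between -0.02 and 0.47.

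The rest of the pathway was read from lists. Of 5 other class II genes, 4 had a probe (H2-DMb2, H2-Oa, H2-Ob and H2-Eb2) and 0 were measured. H2-Ob, a chain of the inhibitor of H2-DM, was well above background on 2 of 8 arrays, and the other 3 were so on 0. Of 7 factors of the class II promoter, 6 were measured and 0 passed the test, with differences of -0.15 to 0.12 (median -0.02). Rfx5, a subunit of the RFX complex, was well above background on 2 of 8 arrays and was not measured.

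Of 10 measured genes of endosomal processing, 0 passed the test, 4 had a negative difference, and the median was 0.03. Ctss, cathepsin S, which cleaves the invariant chain, had values of 2.27, 1.36, 2.62 and 2.30 in CreTW cartilage, against 3.11, 2.76, 3.07 and 1.90 in Cre cartilage (-0.57 ± 0.33, adjusted p = 0.584). Ifi30, the thiol reductase GILT of the endosome, differed by -0.48 ± 0.25 (adjusted p = 0.538). Both were lowest on CreTW replicate 2, and within Cre both were lowest on replicate 4. Ctsb, a broadly expressed cathepsin, differed by 0.02 ± 0.11 and Lamp1, a lysosomal membrane protein, by 0.21 ± 0.09 (adjusted p = 0.964 and 0.44). Ctsl, cathepsin L, named after the values were seen, had the lowest adjusted p of the list, with values of 4.43, 4.34, 4.55 and 4.44 in CreTW cartilage, against 4.07, 3.91, 3.98 and 4.001 in Cre cartilage (0.45 ± 0.08, adjusted p = 0.0874). Its genotypes did not overlap. With normexp, with trend and robust eBayes or with array weights, 1 gene of the list passed the test as higher.

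In class I presentation, 14 genes were measured, 13 had a negative difference (median -0.20) and 0 passed the test. B2m, the light chain of class I, was the exception in sign at 0.30 ± 0.17 (adjusted p = 0.571). H2-K1, a class I heavy chain, differed by -0.32 ± 0.11 (adjusted p = 0.353), and Nlrc5, the class I transactivator, by -0.22 ± 0.50 (adjusted p = 0.902). Of 13 measured genes of the interferon gamma axis, which induces Ciita, 4 had a negative difference (median 0.05) and 0 passed the test. Ifng, the cytokine, and Cxcl9, a chemokine it induces, were well above background on 0 of 8 arrays. The 3 brightest were Ifngr1, a receptor chain (-0.21 ± 0.11, adjusted p = 0.549), Jak1, a receptor kinase (0.05 ± 0.13, adjusted p = 0.919), and Irf1, a transcription factor (-0.25 ± 0.15, adjusted p = 0.598), the last being the lowest of the list. At the other end, named after the values were seen, were Cxcl10, a chemokine (0.71 ± 0.66, adjusted p = 0.719), and Igtp, a GTPase (0.62 ± 0.19, adjusted p = 0.292).

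Among the cell types that make class II, 0 of 20 measured macrophage and monocyte markers passed the test (17 negative, median -0.15), with scores of -0.69 to 0.21 in CreTW and -0.51 to 0.53 in Cre. Csf1r, the receptor of the macrophage growth factor, had values of 4.64, 4.06, 5.30 and 5.08 in CreTW cartilage, against 5.59, 5.61, 5.59 and 4.41 in Cre cartilage (-0.53 ± 0.35, adjusted p = 0.617). Markers of this list did not share one direction: Tyrobp, a signalling adaptor, differed by -0.76 ± 0.40 (adjusted p = 0.548), and Mrc1, the mannose receptor, named after the values were seen, by 0.60 ± 0.22 (adjusted p = 0.373). Itgam, the integrin CD11b, differed by 0.22 ± 0.10 (adjusted p = 0.503) on a probe well above background on all 8 arrays, while its other probe was so on 2. Of 13 dendritic cell markers 7 were measured and 0 passed (6 negative, median -0.41), with scores of -0.52 to 0.03 in CreTW and -0.29 to 0.44 in Cre. Xcr1 and Clec9a, which mark a dendritic cell subset, were well above background on 0 arrays, and Flt3, a receptor of dendritic cell precursors, on 1. Itgax, the integrin CD11c, was the lowest of the list at -0.76 ± 0.59 (adjusted p = 0.669). Batf3, a transcription factor, differed by 0.06 ± 0.21, Cd83, a maturation marker, by -0.53 ± 0.18 and Siglech, a lectin, by -0.01 ± 0.12 (adjusted p = 0.943, 0.339 and 0.975). The other probe of Siglech was well above background on 0 arrays. Of 17 B lineage markers 11 were measured and 0 passed (9 negative, median -0.43), with scores of -0.93 to 0.36 in CreTW and -0.67 to 1.22 in Cre. Cd79a, a chain of the B cell receptor complex, was well above background on 2 arrays, and Rag1 and Rag2, which recombine antigen receptor genes, on 0. The 3 brightest were Cd22 (0.09 ± 0.10), Blnk (-0.47 ± 0.33) and Ebf1 (0.02 ± 0.10), with adjusted p = 0.769, 0.637 and 0.952 by limma. Ms4a1, the B cell antigen CD20, was named after the values were seen. It had the lowest difference of the list at -2.004 ± 0.66 (adjusted p = 0.337) and was well above background on 1 CreTW and 3 Cre arrays. Without Cre replicate 4, or with the chondrocyte score in the fit, 1 B lineage gene passed the test as lower. These medians moved with single arrays. Without Cre replicate 3 they were -0.06 for macrophages and monocytes, -0.11 for dendritic cells and -0.23 for the B lineage, and without Cre replicate 4 they were -0.37, -0.63 and -0.81 in the same order. The part of these cells in the class II values was not tested beyond the covariates given here.

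Osteoclasts, the bone-resorbing cells of the same myeloid line, gave 9 measured markers, all with a negative difference (median -0.83) and 0 passing the test. Their score ranged from -1.27 to 0.34 in CreTW and from -0.54 to 0.76 in Cre and correlated with the pan-leukocyte score at r = 0.93. With the osteoclast score as a covariate, an alternative chosen after the values were seen, H2-Ab1 differed by -1.02 ± 0.19, H2-Aa by 0.03 and Cd74 by -0.03. The remaining lists had medians of -0.30 for T and NK cells (7 genes), -0.16 for neutrophils (12), -0.63 for the erythroid line (8), -0.13 for endothelium (10), -0.25 for osteoblasts (8) and 0.34 for fibroblasts and perichondrium (11), with 0 genes passing the test in each. With 1 array left out at a time, the median ranged from -0.63 (without Cre replicate 4) to 0.54 (without Cre replicate 3) for neutrophils, and from -0.68 (without Cre replicate 4) to -0.12 (without Cre replicate 1) for T and NK cells. It was lowest without Cre replicate 4 and highest without CreTW replicate 2 for endothelium (-0.29 and 0.0045), osteoblasts (-0.46 and -0.15) and osteoclasts (-1.16 and -0.50). The 12 chondrocyte markers had a median of -0.13, and the labelled tissue showed its defining genes. Col2a1, the main cartilage collagen, had values of 10.02, 9.92, 9.66 and 9.81 in CreTW cartilage, against 9.68, 9.97, 9.77 and 10.18 in Cre cartilage (-0.05 ± 0.13, adjusted p = 0.923).

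**Figure D5:**
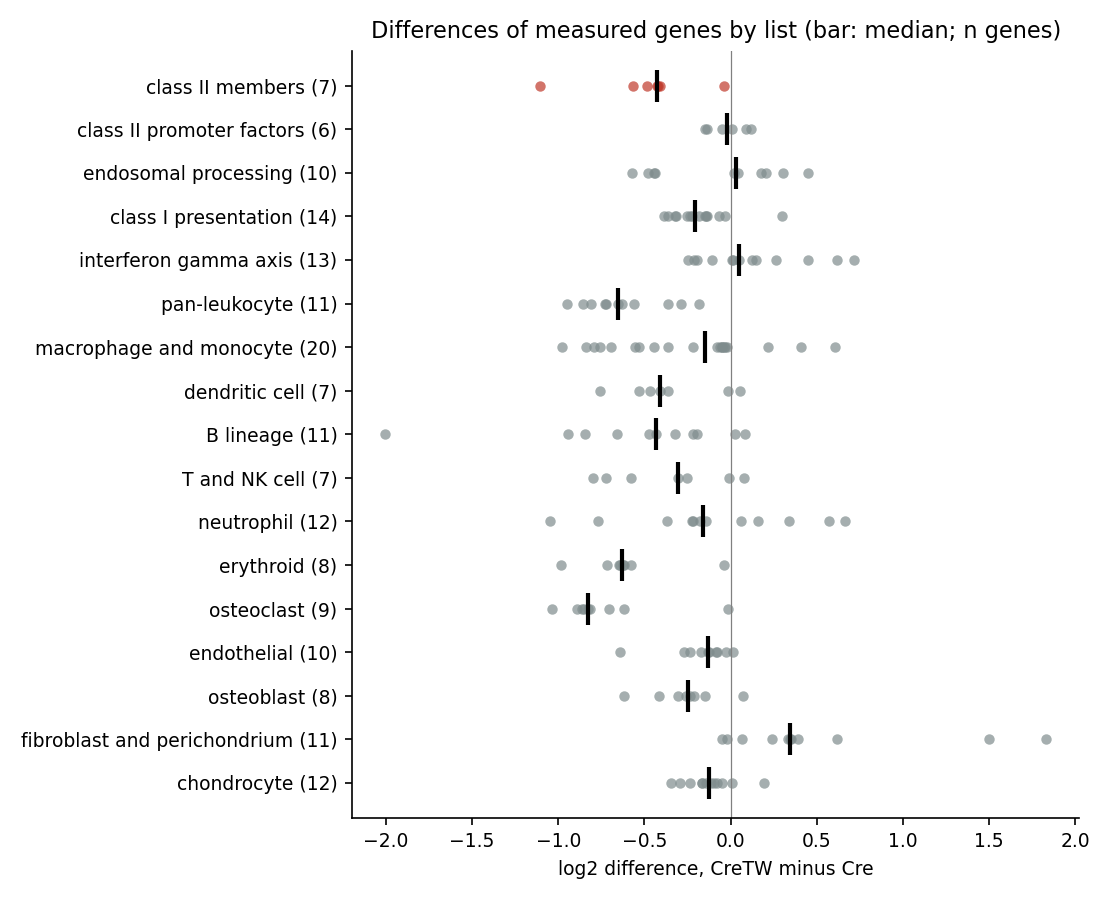
Log2 difference, CreTW minus Cre (x axis), of each measured gene by list, with the 7 class II genes in red, other genes in grey and the list median as a black bar; the skeletal muscle list (median 3.99) is not drawn. The class II median is -0.43, and H2-Ab1 at -1.10 is the lowest of the class II genes. Medians of the other lists drawn run from -0.83 (osteoclast) to 0.34 (fibroblast and perichondrium). For cells that make class II they are -0.15 (macrophage and monocyte), -0.41 (dendritic cell) and -0.43 (B lineage).

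On chromosome 17, the 12 nearest measured genes on each side of H2-Ab1 included 4 members and 20 other genes. Of those 20, 0 passed the limma test (lowest adjusted p = 0.389), 16 had a negative difference and the differences ranged from -0.73 to 0.14 with a median of -0.13. Of the 25 genes with H2-Ab1 itself, H2-Ab1 was the 1 whose genotypes did not overlap. Over all features the genotypes did not overlap in 2.81% with CreTW below and in 3.89% with CreTW above. The contrast chose H2-Ab1, so nothing is read from its place among these genes. Tap2, the transporter chain gene next to it on one side, had values of 1.07, 0.74, 1.13 and 1.39 in CreTW cartilage, against 1.45, 1.17, 1.50 and 0.80 in Cre cartilage (-0.15 ± 0.19, adjusted p = 0.8). Gpsm3, at the low end of the range, was named after the values were seen (-0.73 ± 0.27, adjusted p = 0.389).

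The genes whose pattern was most like the mean of H2-Ab1, H2-Aa, H2-Eb1 and Cd74 were sought among 5611 genes with an SD within genotype of at least 0.2. With genotype means subtracted, the 5 closest over the 8 arrays were Mefv (r = 0.99), Btk (0.99), Trem2 (0.99), Kcnn4 (0.98) and Angptl4 (0.98), and 133 genes had r above 0.9. As measured, the 5 closest were Mefv (0.99), Ccl9 (0.98), Ncf4 (0.98), Igfbp2 (0.98) and Lor (0.98). This second likeness includes the genotype difference that chose the members. Lor was not well above background on CreTW replicates 1, 2 and 3 (-3.67, -4.50 and -3.56) and Cre replicate 4 (-3.38). Mefv, first by both measures, had values of -2.03, -3.25, -2.16 and -1.63 in CreTW cartilage, against -0.93, -1.43, -0.95 and -2.38 in Cre cartilage. On CreTW replicate 2 Mefv was not well above background.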

How the data were processed

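Each spot's intensity, a processed signal with background subtracted, came from the authors' run of Agilent Feature Extraction, version 11.5.1.1 per the file headers. GeneSpring 14.9 was used by the authors, per the labels. The authors' log2 table, as deposited, differed from log2 intensity by 1 constant for each array (r = 1 for all 8), and its columns had medians of -3.03 to -2.93. It has no centring of genes, and each array holds 1 sample, so no direction is unknown.

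Spots of a probe were averaged without outlier flags, log2 was taken and the 75th percentile of the array's non-control probes was subtracted. A probe was kept if 4 or more of the 8 arrays showed it well above background, and a gene took its brightest probe, which left 23105 features. Of 56605 probes, 32994 matched 1 symbol, 0 several and 23611 none in the RefSeq table, whose build differs from that of the arrays and which gave names and gene order only. CreTW and Cre were compared with limma 3.58.1 in R 4.3.3 and Benjamini-Hochberg adjustment, with 6 residual and 2.52 prior degrees of freedom. The fit was also run on simulated data with independent noise for each feature. Such data lack the variation that many features share on an array, so nothing about the calls is read from that run. The members, lists, motifs and named genes were chosen with earlier results of these data known. Named genes were the members, the brightest or listed genes of each list and the genes of the most similar pattern. Not every gene that this rule names is reported here. With genotype means subtracted, same-numbered arrays of the 2 genotypes correlated at r = -0.10 to 0.31. For replicate 3 this r (0.31) exceeded the highest with another number (0.28), and for replicates 1, 2 and 4 it was lower. Such correlations cannot exclude a pairing by litter or handling, so whether the numbers pair the mice is unknown. The labels do not say more of the mice than littermates. Alternatives were other scalings, filters, probe rules, blocks, array weights, marker scores as covariates and leaving out each array. Normexp was run on the median signal, since the mean signal was not used here.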

Additional observations from a re-analysis of the deposited data

Results flagged for a closer look

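Of 58 sets of 4 arrays checked for 1 array far from the other 3, 7 had one, and chance gives about 1 in 20. On the H2-Ab1 probe A_55_P2146560, CreTW replicate 4 had 2.75 and the other CreTW arrays 2.41 to 2.46, all below the Cre arrays. H2-DMa had -1.29 on CreTW replicate 3 and -0.49 to -0.38 on the other CreTW arrays. The dim Ciita probe A_55_P2741198 had -3.13 on Cre replicate 2, the 1 array where it was well above background, and -5.32 to -5.04 on the other Cre arrays. The endosomal processing score was -0.27 on CreTW replicate 2 and 0.04 on each of the other CreTW arrays. Cre replicate 4 was far below the other Cre arrays in 3 scores. The class I score was -0.29 there against 0.17 to 0.26, the osteoclast score -0.54 against 0.57 to 0.76, and the endothelial score -0.39 against 0.22 to 0.29. Values without this array are given with the members.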

How the results depend on the processing

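The count of features past the threshold, 80 with all 8 arrays, was 128 with normexp, 27 with no filter on dim probes, 53 with the slide row as a block, 0 in row 1 alone, 0 in row 2 alone, 127 with array weights, 2 with the skeletal muscle score, 42 with the osteoclast score and 144 with the chondrocyte score in the fit; 2479 features had an unadjusted p under 0.05 with all arrays. With the replicate block it was 12, and H2-Ab1 was not among them. Leaving out 1 array gave 42 to 75. H2-Ab1 stayed negative in all 26 alternatives (-1.27 to -0.83). The class II median of -0.43 was -0.95 in row 1 alone, -0.057 in row 2 alone, 0.028 with the pan-leukocyte score and -0.026 with the osteoclast score as covariate, and -0.70 to -0.23 with 1 array left out. The pan-leukocyte median of -0.66 was -1.23 in row 1 alone and -0.035 with its own score in the fit, and -0.98 to -0.46 with 1 array left out. The value with its own score is near 0 by construction, since the score is made of the same genes. Ciita and H2-Aa have no value under the filter on all 8 arrays, since neither was well above background on CreTW replicate 2, where their level is a bound. The cause of these shifts was not tested.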
